A study of Homo sapiens with 43 samples.

Results

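Hydrocortisone, the pharmaceutical name of cortisol, the main human stress hormone, was given at 10 µM to HMC3 cells for 3 days, and the RNA of these flasks was compared with that of flasks given the ethanol vehicle of the same dose. The comparison rests on 6 of the 43 libraries of the series: the 3 day 3 libraries labelled as the high hydrocortisone dose (replicates 2, 3 and 4) and the 3 day 3 libraries labelled as its own vehicle (replicates 1, 2 and 3). HMC3 is an immortalised human cell line sold as a microglial line, microglia being the macrophages that live in the brain, so every library samples 1 cell line. Total RNA was read with a stranded kit that keeps non-coding transcripts. The rest of the series gave hydrocortisone at 0.01 µM, dexamethasone at 1 or 0.01 µM, further vehicle flasks and medium alone, and part of the cells was reseeded in hormone-free medium and collected again on day 6. The design sets hormone against alcohol vehicle at each dose. Flasks were collected one by one per the labels, and nothing further is said on whether replicates were separate experiments. The p-values therefore speak of the spread among flasks of the same group, which may be technical. That spread was estimated over all 43 libraries of the series and not over these 6 alone.

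Cortisol enters cells and binds the glucocorticoid receptor, encoded by NR3C1, which waits in the cytoplasm in a complex with heat shock protein 90 and its helpers. The loaded receptor moves to the nucleus, binds DNA as a dimer at palindromic glucocorticoid response elements, and can also hold back factors such as NF-kB and AP-1 that drive inflammatory genes. Its classical targets include feedback genes such as FKBP5 and PER1, anti-inflammatory genes such as TSC22D3, and genes of sugar and lipid handling. In the brain the receptor is known for damping microglial inflammatory responses.

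The 6 libraries held 11165431 to 24426643 counts, of which ribosomal RNA genes took 16.63 to 39.26% in 5 libraries and 91.38% in vehicle replicate 1. That library kept 2104861 non-ribosomal counts against 6782134 to 17195639 in the others. Many results are given with and without it, but counts and values given once may also change without it. The label was checked against markers, in CPM of the non-ribosomal counts. Of 24 microglia and macrophage markers 10 could be examined and 6 had a median above 1, GAS6 among them, while the median was 0.261 for CSF1R and 0.0291 for CD68; AIF1, CX3CR1, P2RY12, TMEM119 and PTPRC were not analysed here. The summed level of the 10 was 120.7 to 133.9 with hydrocortisone and 134 to 143 with vehicle, while that of 14 fibroblast and pericyte markers was 5000 to 5389 and 4976 to 5470. So markers that define microglia were at or near 0 and mesenchymal ones were abundant. Of the tested markers, 2 of 8 microglial ones fell, GAS6 among them, and 2 of 14 fibroblast ones rose and 3 fell (1 microglial fall and 1 fibroblast fall without vehicle replicate 1); their part in the results was not tested. In bulk RNA, fewer cells of a kind and less RNA per cell cannot be told apart.

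Hydrocortisone at 10 µM raised 938 genes and lowered 1261 of 16816 tested (5.58% and 7.5% of them, 13.1% in all; adjusted p below 0.05). Here and below, adjusted p-values come from edgeR's quasi-likelihood test with Benjamini-Hochberg adjustment over all genes tested, changes are log2 changes with standard errors (SE) of that fit, and levels are CPM, counts relative to the library total as scaled by edgeR's TMM factors. Most changes were small: the median fold was 1.45 among the raised and 1.39 among the lowered genes, and 193 rises (1.15% of tested genes) and 225 falls (1.34%) reached 2-fold. Of the called genes 1924 were protein coding and 84 were long non-coding RNAs, 50 of them raised. For 11766 well-measured genes (mean log2 CPM over the 43 libraries 1 or more) the 95% interval of a change had a median half-width of 0.245 on the log2 scale, so much smaller changes were mostly not detectable. Without vehicle replicate 1 the count of raised genes was 586 and of lowered genes 987, and without hydrocortisone replicate 4 they were 611 and 785. Against medium alone in place of the vehicle, 1339 genes were higher (7.96%) and 1572 lower (9.35%).

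Among called genes whose log2 CPM averaged 1 or more over all 43 libraries and whose groups did not overlap, the largest rise belonged to ADPRHL1 (chr13:113399610-113453524, minus strand on GRCh38), a pseudoenzyme of the ADP-ribosylhydrolase family known from the heart. Its level was 15.7, 14 and 16.1 CPM with hydrocortisone against 1.09, 1.08 and 0.834 CPM with vehicle. It rose 15.3-fold, from 1.0 ± 0.144 to 15.2 ± 1.11 CPM (SD, n = 3 each), with log2 change 3.94, SE 0.31, adjusted p = 1.67e-11. TSC22D3 (chrX:107713221-107777342, minus strand) encodes GILZ, the leucine zipper protein through which glucocorticoids restrain NF-kB and AP-1. Its libraries read 32.4, 43.1 and 38.6 CPM with hydrocortisone against 4.35, 3.4 and 4.17 CPM with vehicle, so the groups did not overlap and lay 9.59-fold apart (log2 change 3.26, SE 0.27, adjusted p = 1.57e-10). Below that level limit, and named after its values were seen, SCNN1A, a subunit of the epithelial sodium channel that steroid hormones control, read 4.34, 3.71 and 2.87 CPM with hydrocortisone against 0, 0.083 and 0.196 CPM with vehicle (log2 change 4.8, SE 0.98, adjusted p = 0.000357).

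NID2 (chr14:52004803-52069228, minus strand), which encodes the basement membrane linker nidogen-2, read 33.1, 29.4 and 31.3 CPM with hydrocortisone against 3.81, 3.24 and 3.58 CPM with vehicle (log2 change 3.14, SE 0.15, adjusted p = 1.73e-20). It overlaps a gene on the other strand, and whether the counting used strand is not given in the sources used here. ABCA8 (chr17:68867292-68955392, minus strand), a lipid transporter of the ABC family, read 81.9, 82.7 and 86.1 CPM with hydrocortisone against 11.1, 10.1 and 11.1 CPM with vehicle (log2 change 2.95, SE 0.12, adjusted p = 1.12e-21). For CRISPLD2 (chr16:84819984-84920768, plus strand), a secreted protein induced by glucocorticoids in airway smooth muscle, the values were 78.1, 73.9 and 79.9 CPM with hydrocortisone against 12.5, 9.38 and 10.2 CPM with vehicle (log2 change 2.85, SE 0.18, adjusted p = 8.05e-14). In all 3 the spread within a group was far smaller than the gap between the groups. Among all tested genes 15% had every hydrocortisone library above every vehicle library and 14% had the reverse, called or not. The other 7 of the 12 largest rises ran from 2.76 down to 2.1: CERNA2, a long non-coding RNA (2.76), IP6K3, an inositol hexakisphosphate kinase (2.4), ENSG00000285417, a gene without a symbol that overlaps RHEX on the same strand (2.33), FAT4, a giant cadherin of the Hippo pathway (2.21), HTRA1, a secreted serine protease (2.18), RNF150 (2.12) and TLR4, the receptor for bacterial lipopolysaccharide (2.1).

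The largest falls were led by MPP4, a scaffold protein of photoreceptor synapses, at low counts: 2, 3 and 3 reads with hydrocortisone and 4, 24 and 29 with vehicle, a log2 change of -3.66 with a 95% interval of -4.67 to -2.65. IGFBP5 (chr2:216672105-216695525, minus strand), a binding protein of insulin-like growth factors, read 2.77, 2.25 and 2.61 CPM with hydrocortisone against 14.4, 20.1 and 23.5 CPM with vehicle (log2 change -2.93, SE 0.20, adjusted p = 2.59e-13). F3 (chr1:94529225-94541800, minus strand) encodes tissue factor, the starter of blood coagulation, and read 7.65, 8.11 and 7.86 CPM with hydrocortisone against 45.4, 55 and 53.9 CPM with vehicle (log2 change -2.71, SE 0.16, adjusted p = 1.76e-14). HAS2 (chr8:121612116-121641390, minus strand), a synthase of the matrix polysaccharide hyaluronan, read 4.22, 3.68 and 4.11 CPM with hydrocortisone against 21.2, 20.5 and 21 CPM with vehicle (log2 change -2.38, SE 0.14, adjusted p = 3.46e-17). These 3 genes were expressed clearly in every vehicle flask and lower in every treated one. The remaining falls among the largest 12 were PSG1, PSG6 and PSG11 of the pregnancy-specific glycoproteins, KRTAP2-3, the G protein regulator RGS4, the activin antagonist FST, HAS3 and DCDC2, between -3.03 and -2.12. DCDC2 rested on 8, 11 and 3 reads against 2, 18 and 40 and did not pass without hydrocortisone replicate 4, and RGS4 on 10, 17 and 15 against 14, 42 and 71. KRTAP2-3 and the PSG genes have near-identical relatives among which reads may be split.

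**Figure D1:**
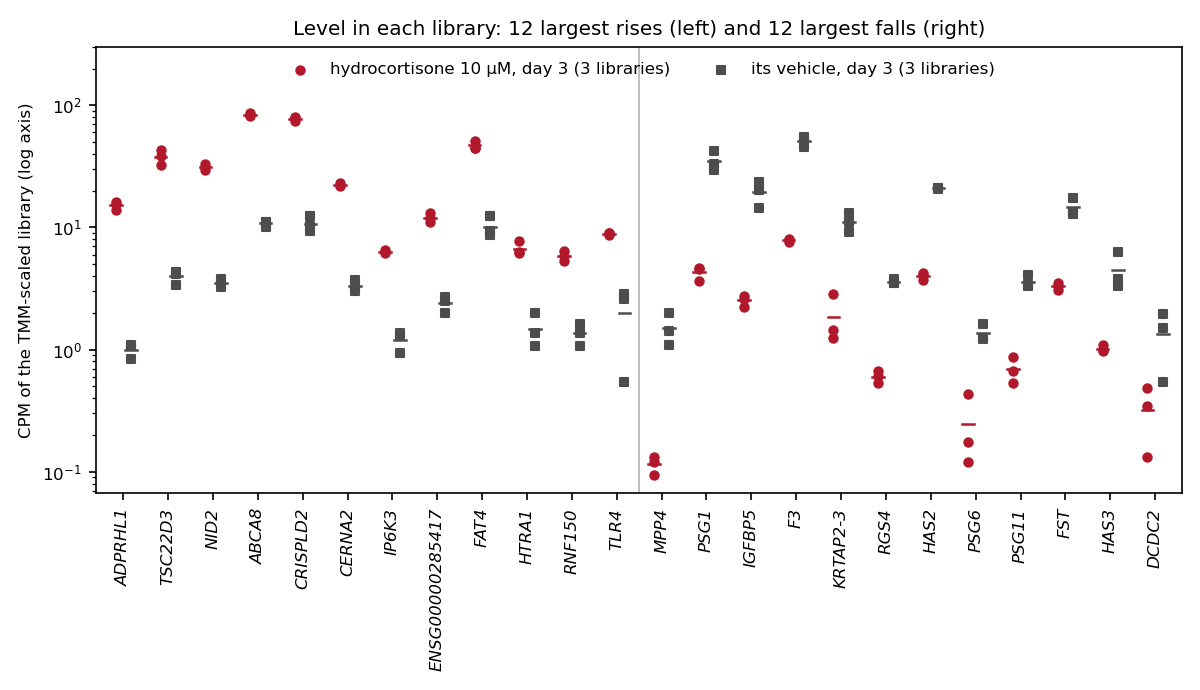
Level of the 12 genes with the largest rises (left of the grey line) and the 12 with the largest falls (right) in each of the 6 libraries, in CPM of the TMM-scaled library on a log axis. Red circles are the 3 hydrocortisone libraries, grey squares the 3 vehicle libraries and short lines their means; ADPRHL1 sits between 13.98 and 16.1 CPM with hydrocortisone and between 0.834 and 1.09 CPM with vehicle, and in none of the 24 genes do the groups overlap.

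The receptor and its machinery moved in both directions: 3 of 17 tested members of the list of receptor, chaperones and steroid handling rose and 6 fell, with a median log2 change of -0.04 against 0.01 over all tested genes. NR3C1 itself (chr5:143277931-143435512, minus strand) read 60.5, 59.2 and 67.7 CPM with hydrocortisone against 80.2, 79.9 and 85.1 CPM with vehicle, with all treated flasks below all vehicle flasks (log2 change -0.39, SE 0.09, adjusted p = 0.00136). HSP90AA1, the inducible heat shock protein 90 that holds the receptor ready for hormone, read 248, 280.2 and 272 CPM with hydrocortisone against 487, 443 and 648 CPM with vehicle (log2 change -0.98, SE 0.17, adjusted p = 0.000152). The falls in the list also took in its partners HSP90AB1 (-0.28), FKBP4 (-0.51), STIP1 (-0.28) and HSPA4 (-0.20). FKBP5, the co-chaperone that lowers the receptor's hormone affinity and closes a feedback loop, went the other way and read 71.6, 89.9 and 83.3 CPM with hydrocortisone against 32.4, 32 and 40.4 CPM with vehicle (log2 change 1.22, SE 0.13, adjusted p = 6.03e-09). ABCB1, the efflux pump P-glycoprotein that carries cortisol and dexamethasone out of cells, read 25.3, 25.1 and 24 CPM with hydrocortisone against 7.88, 10.3 and 11.4 CPM with vehicle (log2 change 1.33, SE 0.13, adjusted p = 8.95e-11). H6PD, which supplies the cofactor of the cortisol-regenerating enzyme, rose by 0.86 (adjusted p = 0.000599). The gene of that enzyme, HSD11B1, was not among the tested genes.

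Of 10 anti-inflammatory mediators tested, 3 rose and 1 fell, with a median change of 0.47. Besides TSC22D3, the rises were NFKBIA, the inhibitor that keeps NF-kB in the cytoplasm, and BIRC3, an ubiquitin ligase of the TNF pathway. NFKBIA read 23.1, 21 and 19.3 CPM with hydrocortisone against 7.88, 10.8 and 8.83 CPM with vehicle (log2 change 1.2, SE 0.14, adjusted p = 3.79e-09), and BIRC3 rose by 1.21 (adjusted p = 0.0032). The fall was ANXA1, annexin A1, often described as a mediator of glucocorticoid action: it read 64.8, 73.3 and 71.3 CPM with hydrocortisone against 101, 104 and 92.5 CPM with vehicle (log2 change -0.51, SE 0.08, adjusted p = 5.24e-06). DUSP1, the phosphatase that switches off p38 and JNK, read 185, 242 and 204 CPM with hydrocortisone against 121, 132 and 146 CPM with vehicle without overlap, yet did not pass the test (0.67, SE 0.34, adjusted p = 0.215). SGK1, a kinase named for its induction by serum and glucocorticoids, read 35.7, 44.2 and 42.9 CPM with hydrocortisone against 32.1, 37.9 and 42.2 CPM with vehicle and its groups overlapped (0.13, 95% interval -0.35 to 0.61, adjusted p = 0.797).

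Among 13 transcription factors known to be induced by the hormone, 3 rose and 1 fell (3 and 4 against medium). PER1, a clock repressor with a receptor-bound promoter, read 26.4, 29.8 and 26.8 CPM with hydrocortisone against 6.25, 4.9 and 8.83 CPM with vehicle (log2 change 2.05, SE 0.22, adjusted p = 2.63e-08). KLF9, a Krüppel-like repressor that responds early to glucocorticoids, read 10.3, 10 and 10.3 CPM with hydrocortisone against 3.26, 3.49 and 3.63 CPM with vehicle (log2 change 1.55, SE 0.17, adjusted p = 1.88e-09). CEBPD rose by 1.54 (adjusted p = 0.000218) at about 3 CPM or less, and ARID5B fell by 0.54 (adjusted p = 0.0181). A further list of hormone-induced kinases, signalling and metabolic genes had 9 rises and 1 fall among 22 tested (median 0.33), and 7 rises without vehicle replicate 1. TXNIP, which blocks thioredoxin and glucose uptake, read 68.2, 66.1 and 70.3 CPM with hydrocortisone against 26.4, 28.5 and 20.4 CPM with vehicle (log2 change 1.44, SE 0.31, adjusted p = 0.00162). The other rises included the arginine transporter SLC7A2 (1.07), TIPARP, an ADP-ribosyltransferase (0.90), the insulin pathway genes IRS2 (0.73) and INSR (0.55), the mTOR inhibitor DDIT4 (0.69) and ANGPTL4, an inhibitor of lipoprotein lipase that was found in 1, 3 and 4 reads with vehicle and 41, 77 and 42 with hydrocortisone (95% interval of the log2 change 1.87 to 4.62). NEDD9, a docking protein of focal adhesions, fell by 0.73 (adjusted p = 1.11e-06). Of 8 metallothionein and zinc genes, the metal-binding MT2A (0.61), MT1E (0.80) and MT1X (0.74) rose; the metallothioneins are near-identical, so their reads may be split.

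Promoter sequences were read for named genes whose direction was clear, as letters in which the receptor's palindromic core and an AP-1 site can be seen. They are RefSeq promoters on GRCh38.p14, 250 bases before to 50 bases after the annotated start, printed 5' to 3' along the gene. The sequences of 2 raised genes, TSC22D3 (chrX:107775939-107776238, minus strand) and TXNIP (chr1:145996530-145996829, minus strand), carry capitals at ACANNNTGT, the spaced palindrome at the heart of a glucocorticoid response element. In 3 lowered genes, F3 (chr1:94541710-94542009, minus strand), IL11 (chr19:55370414-55370713, minus strand) and PLAUR (chr19:43670120-43670419, minus strand), capitals mark TGANTCA, the AP-1 site.
TSC22D3: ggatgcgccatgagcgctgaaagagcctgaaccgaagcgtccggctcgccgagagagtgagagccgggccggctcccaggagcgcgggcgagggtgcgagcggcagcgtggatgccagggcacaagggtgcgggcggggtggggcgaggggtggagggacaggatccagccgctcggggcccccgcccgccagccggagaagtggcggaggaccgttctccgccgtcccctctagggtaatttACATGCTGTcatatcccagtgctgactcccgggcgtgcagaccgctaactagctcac
TXNIP: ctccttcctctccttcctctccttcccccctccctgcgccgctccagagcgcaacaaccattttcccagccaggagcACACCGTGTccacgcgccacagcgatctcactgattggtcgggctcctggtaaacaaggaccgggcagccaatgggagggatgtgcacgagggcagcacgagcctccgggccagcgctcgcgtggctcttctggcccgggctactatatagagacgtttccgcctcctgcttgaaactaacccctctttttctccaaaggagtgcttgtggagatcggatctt
F3: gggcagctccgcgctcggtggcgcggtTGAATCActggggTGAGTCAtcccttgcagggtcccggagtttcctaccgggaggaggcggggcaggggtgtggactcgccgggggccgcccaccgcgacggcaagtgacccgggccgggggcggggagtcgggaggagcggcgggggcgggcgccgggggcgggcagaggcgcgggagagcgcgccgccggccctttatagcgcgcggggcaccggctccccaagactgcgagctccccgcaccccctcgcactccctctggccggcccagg
IL11: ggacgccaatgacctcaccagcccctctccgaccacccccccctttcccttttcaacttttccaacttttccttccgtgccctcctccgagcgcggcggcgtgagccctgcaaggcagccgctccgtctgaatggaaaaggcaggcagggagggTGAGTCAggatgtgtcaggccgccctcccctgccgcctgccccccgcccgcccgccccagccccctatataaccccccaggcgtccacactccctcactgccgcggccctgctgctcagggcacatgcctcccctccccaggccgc
PLAUR: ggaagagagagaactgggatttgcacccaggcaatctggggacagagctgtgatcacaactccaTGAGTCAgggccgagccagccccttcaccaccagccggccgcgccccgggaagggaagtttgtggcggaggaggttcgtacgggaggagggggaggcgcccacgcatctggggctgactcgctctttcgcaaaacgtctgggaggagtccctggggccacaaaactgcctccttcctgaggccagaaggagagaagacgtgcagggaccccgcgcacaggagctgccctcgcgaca
Each was chosen because it holds a match; 18 matches were found in the promoters of 17 named genes, of 144 named genes with a promoter in the table. The match of TSC22D3 begins 7 bases before the start and that of TXNIP 173 bases before it. A single promoter was read per gene, so other starts of a gene were not searched. Whether the start used for TSC22D3 is that of the GILZ transcript was not examined. F3 has a pair of AP-1 matches, from 223 and 210 bases before the start, IL11 has one from 96 and PLAUR one from 186 bases before. Both strands were searched, and the motifs did not overlap each other in these 5 promoters. Of all 10993 tested genes with a promoter, 2.57% held ACANNNTGT, against 4.22% of 734 raised and 2.08% of 867 lowered genes, and 7.63% of 131 genes raised and 6.72% of 134 lowered by at least 2-fold. TGANTCA was in 4.44% of all, 5.18% of raised and 5.88% of lowered genes, and in 3.82% and 10.4% of those raised and lowered by at least 2-fold. A match is a run of letters and no evidence of binding. Matches lay in genes of both directions, so the 5 printed promoters do not stand for all named genes with a match. ACANNNTGT was also in NEDD9, SERPINE2, PSG4 and PSG5, which fell, and in CCNG1, which was not called. TGANTCA was also in MT2A, IFIT5 and GINS1, which rose, in FST, IRAK1 and GJA1, which fell, and in ANXA2, not called.

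Of the hyaluronan genes, 1 of 12 tested rose and 4 fell (median -0.26). HAS3, a further hyaluronan synthase, read 1.08, 0.998 and 0.972 CPM with hydrocortisone against 3.81, 3.32 and 6.33 CPM with vehicle (log2 change -2.14, SE 0.27, adjusted p = 5.94e-08). CD44, the main hyaluronan receptor of the cell surface, read 28.7, 29.5 and 29.8 CPM with hydrocortisone against 72.8, 72.7 and 103 CPM with vehicle (log2 change -1.5, SE 0.14, adjusted p = 2.45e-09). VCAN, the hyaluronan-binding proteoglycan versican, fell by 0.79 (adjusted p = 7.88e-05). So the HAS2 and HAS3 synthases, the receptor and versican were all lower, whereas CEMIP2, a surface protein that cleaves hyaluronan, rose by 0.23, a call lost without vehicle replicate 1. HAS2 overlaps HAS2-AS1, and HAS3 overlaps CHTF8, on the other strand; whether the counting used strand is not given in the sources used here.

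Basement membrane genes had 10 rises and 2 falls among 24 tested (9 and 1 without vehicle replicate 1). After NID2 the largest were COL4A4 (1.61), LAMA3 (1.2), COL4A6 (1.06) and LAMA5 (1.02), all at low levels. At higher levels, COL4A5, a chain of type IV collagen, read 49.2, 57.1 and 52 CPM with hydrocortisone against 32.4, 28.6 and 34.1 CPM with vehicle (log2 change 0.73, SE 0.08, adjusted p = 1.01e-09). LAMB2 and the heparan sulfate proteoglycan HSPG2 (perlecan) rose by 0.71 and 0.63, and LAMB1 fell by 0.59 (adjusted p = 1.38e-08), so the laminin beta chains moved in opposite directions. The main chains COL4A1 (0.05) and COL4A2 (-0.05) did not pass.

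Of 30 interstitial matrix genes 7 rose and 7 fell, against 6 and 5 without vehicle replicate 1, 9 and 4 against medium, and 9 and 5 against all vehicles of day 3. FBN1, fibrillin-1 of the elastic microfibrils, read 65.8, 74 and 75.7 CPM with hydrocortisone against 26.9, 22.7 and 32.1 CPM with vehicle (log2 change 1.4, SE 0.13, adjusted p = 7.39e-11), and FBN2 rose by 0.83. COL5A1, which nucleates collagen fibrils, read 182, 168 and 174 CPM with hydrocortisone against 99, 90.2 and 99.6 CPM with vehicle (log2 change 0.86, SE 0.08, adjusted p = 1.67e-11), and COL12A1 and COL5A2 rose by 0.79 and 0.31. DCN, the proteoglycan decorin, had 1, 0 and 2 reads with vehicle and 25, 60 and 53 with hydrocortisone (log2 change 4.33, 95% interval 2.58 to 6.07). Among the falls, the matricellular THBS2 read 102, 89.1 and 95.3 CPM with hydrocortisone against 189, 188 and 195 CPM with vehicle (log2 change -0.99, SE 0.08, adjusted p = 8.19e-14) and tenascin TNC went from 117 ± 23.3 to 57.9 ± 1.66 CPM (SD, n = 3 each) without overlap (log2 change -1.02, SE 0.16, adjusted p = 2.05e-05). The collagen cross-linkers LOX (-0.64), LOXL2 (-0.42) and LOXL1 (-0.37) fell as well. COL1A1, a fibrillar collagen gene, at mean levels of 1066 and 1052 CPM, did not pass (0.02, 95% interval -0.28 to 0.32).

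Matrix proteases and their inhibitors had 9 falls and 3 rises among 20 tested, but 4 falls and 7 rises against medium, and 9 falls and 6 rises against all vehicles of day 3. ADAMTS1, an aggrecan-cleaving protease, read 121, 139 and 128 CPM with hydrocortisone against 241, 250.1 and 281 CPM with vehicle (log2 change -0.99, SE 0.13, adjusted p = 2.73e-06). ADAMTS6 (-1.6), ADAMTS5 (-1.35) and the sheddase ADAM19 (-1.21) also fell, and so did the inhibitors TIMP3 (-1.0) and TIMP1 (-0.32). ADAM10, the main sheddase of Notch and of the amyloid precursor, rose instead and read 131, 135 and 150.3 CPM with hydrocortisone against 76.1, 76.6 and 89.5 CPM with vehicle (log2 change 0.78, SE 0.07, adjusted p = 8.32e-12). The rises of MMP14 (0.23) and RECK (0.40) were not called without vehicle replicate 1, which left ADAM10 as 1 rise and 8 falls.

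In the TGF-beta, activin and BMP list, 9 of 38 genes rose and 6 fell (median 0.10), against 8 and 6 without vehicle replicate 1. INHBA, the subunit of activin A, read 11.4, 11.4 and 11.1 CPM with hydrocortisone against 28.8, 24.7 and 30.1 CPM with vehicle (log2 change -1.3, SE 0.11, adjusted p = 4.62e-13), and INHBB fell by 0.59. Of its antagonists, FST (follistatin) read 3.07, 3.49 and 3.31 CPM with hydrocortisone against 13.3, 12.9 and 17.6 CPM with vehicle (log2 change -2.15, SE 0.21, adjusted p = 7.85e-09), whereas FSTL3 rose and read 87.4, 75 and 75 CPM with hydrocortisone against 48.4, 46.6 and 41.5 CPM with vehicle (log2 change 0.80, SE 0.09, adjusted p = 5.09e-09). The BMP antagonist NOG fell by 0.92. Of the receptors, 3 rose: TGFBR1 by 0.47, TGFBR2 by 0.69 and BMPR1A by 0.39. Among target genes, TGFBI, a TGF-beta-induced matrix protein, read 50.4, 52.1 and 47.9 CPM with hydrocortisone against 157, 164 and 159 CPM with vehicle (log2 change -1.68, SE 0.10, adjusted p = 6.2e-17), the BMP target ID3 rose by 0.79, and SMAD7 (0.10) did not pass. Of 23 YAP and SRF targets, 5 fell and 1 rose: MYOCD, a coactivator of smooth muscle genes, by 1.71, CNN1 by 0.80, the receptor kinase AXL by 0.65 and the actin-binding TPM1 (-0.41) and CALD1 (-0.22) by less, while ANKRD1 rose by 0.79. CCN1 (-0.50) and CCN2 (-0.28), the best-known YAP targets, did not pass.

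The insulin-like growth factor axis had 4 rises and 5 falls among 17 genes. IGFBP3, the main carrier of the growth factors, read 45.4, 41.5 and 45.9 CPM with hydrocortisone against 101, 102 and 98.7 CPM with vehicle (log2 change -1.18, SE 0.08, adjusted p = 6.57e-16), and PAPPA, the protease that frees them, fell by 0.92. Over 15 alternatives the IGFBP3 call was never lost, but its log2 change ran from -1.21 to -0.40. IGFBP7 went up and read 46, 46.5 and 43.4 CPM with hydrocortisone against 16.3, 20.3 and 21.6 CPM with vehicle (log2 change 1.22, SE 0.14, adjusted p = 1.32e-08), as did HTRA1, which cleaves binding proteins. The receptor IGF1R (0.01) did not pass.

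Tissue factor and the plasminogen system had 7 falls and 2 rises among 17 genes, and the same counts without vehicle replicate 1. PLAUR, the receptor of the plasminogen activator urokinase, read 8.49, 8.14 and 7.95 CPM with hydrocortisone against 19, 25.1 and 18.8 CPM with vehicle (log2 change -1.36, SE 0.12, adjusted p = 1e-11). SERPINE2, an inhibitor of thrombin and urokinase, read 4.94, 5.27 and 5.08 CPM with hydrocortisone against 16, 16 and 16.3 CPM with vehicle (log2 change -1.66, SE 0.11, adjusted p = 1.01e-15). The falls also took in the thrombin-receptor genes F2RL2 (-1.58) and F2R (-0.35), TFPI (-0.69), the inhibitor of tissue factor, and PROCR (-0.37). The activators PLAU (-0.27) and PLAT (0.08) did not pass.

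Growth factors and their receptors had 7 falls and 3 rises among 27 genes, and all but one of the falls were ligands. Without vehicle replicate 1 there were 7 falls and 2 rises. FGF5 read 24.6, 24.6 and 27.2 CPM with hydrocortisone against 65.5, 65.3 and 123 CPM with vehicle (log2 change -1.73, SE 0.21, adjusted p = 5.53e-07), with vehicle replicate 3 well above the other vehicle flasks. BDNF, a neurotrophin that supports neurons, read 22.1, 19 and 19.5 CPM with hydrocortisone against 28, 35.9 and 30.9 CPM with vehicle (log2 change -0.65, SE 0.13, adjusted p = 0.000253). FGF1 (-1.52), NRG1 (-0.85) and HBEGF (-0.88) were also lower, as was EGFR (-0.40), the receptor of HBEGF. Downstream, the MAP kinase phosphatases DUSP4 (-1.56) and DUSP14 (-0.55) and the inhibitor SPRED2 (-0.56) fell among 18 tested phosphatases and Sproutys; these 3 are 16.7% of the list, near the 13.1% of all tested genes. Of 23 immediate early genes 4 fell and none rose, so 17.4% of the list was called, near the 13.1% of all tested genes. The AP-1 subunit FOSL1 read 17.4, 20.5 and 18.6 CPM with hydrocortisone against 48.9, 42.8 and 48.2 CPM with vehicle (log2 change -1.31, SE 0.11, adjusted p = 4.72e-13). MYC fell by 0.51 (adjusted p = 0.000122), and MAFF and KLF4 passed narrowly and not without vehicle replicate 1. FOS (0.48), JUN (-0.22) and EGR1 (0.54) did not pass.

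Immune genes showed no common fall. Of 18 cytokine, chemokine and prostaglandin genes tested, 4 rose and 2 fell, against 1 and 2 without vehicle replicate 1 and 3 and 4 against medium. IL11, a cytokine of the interleukin-6 family that fibroblasts make, was the clearest and read 6.93, 7.71 and 7.6 CPM with hydrocortisone against 30.7, 30.5 and 28.1 CPM with vehicle (log2 change -2.0, SE 0.24, adjusted p = 3.52e-07). IL1B, also called lower, rested on 1, 1 and 0 reads against 0, 2 and 6 (95% interval -4.25 to -0.74). CSF1, the growth factor of macrophages, rose by 0.87 (adjusted p = 0.00701); IL32 and PTGS1 rose with adjusted p of 0.0405 and 0.0239, and CXCL8 passed just under the threshold. IL6 (-0.67) and CCL2 (-0.70) did not pass. TLR4 read 9.04, 8.7 and 8.97 CPM with hydrocortisone against 0.544, 2.57 and 2.85 CPM with vehicle (log2 change 2.1, SE 0.29, adjusted p = 2.13e-06), vehicle replicate 1 resting on 2 reads; with the 6 libraries fitted alone it did not pass. Of the other NF-kB and toll-like receptor genes, REL rose by 0.76, a call lost in 8 of 15 alternatives, DESeq2 and the fit without vehicle replicate 1 among them, and IRAK1 fell by 0.48. With 21 of 24 not passing, 12.5% of this list was called, near the 13.1% of all tested genes. Of 25 interferon-stimulated genes tested, 4 rose and 1 fell (median 0.41): the RNA-binding IFIT3 (1.32), IFIT2 (1.2), IFIT1 (0.90) and IFIT5 (0.45) were higher and the DNA sensor IFI16 (-0.82) lower. Without vehicle replicate 1, 3 of these genes rose and 1 fell. Against all 12 vehicle libraries of day 3, 12 of them were called higher. In that comparison 11.7% of all tested genes were called higher, against 5.58% with the vehicle of the same dose.

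Of 24 p53 targets 9 rose and none fell, with a median change of 0.37, and 9 rose also without vehicle replicate 1; against medium 16 rose and 1 fell. MDM2, the ubiquitin ligase that degrades p53, read 169, 204 and 210.0 CPM with hydrocortisone against 89.7, 109.9 and 116 CPM with vehicle (log2 change 0.89, SE 0.09, adjusted p = 2.35e-10); it overlaps a carboxypeptidase gene on the other strand. CDKN1A, the cell cycle inhibitor p21, read 105, 123 and 104 CPM with hydrocortisone against 73.7, 68.8 and 70.7 CPM with vehicle (log2 change 0.64, SE 0.10, adjusted p = 1.78e-05). BTG2 (1.01), TP53I3 (0.87), TP53INP1 (0.71) and DDB2 (0.53) followed, while BAX (0.02) and GDF15 (0.19) did not pass. Of 30 S phase genes GINS1 rose (0.38), with 1 rise and 4 falls against medium. Of 30 mitotic genes 5 rose by 0.33 or less, of which 1 was called without vehicle replicate 1. So 3.33% of the S phase list was called, below the 13.1% of all tested genes, and 16.7% of the mitotic list, near it.

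Transport and metabolism lists held single large changes. Next to ABCA8, the cholesterol exporter ABCA1 read 49.3, 52.3 and 51.7 CPM with hydrocortisone against 22, 24.6 and 33 CPM with vehicle (log2 change 0.94, SE 0.10, adjusted p = 2.22e-10), and 8 of 11 ABC transporters tested did not pass. SLC1A3, the glial glutamate transporter, read 6.33, 6.83 and 6.14 CPM with hydrocortisone against 2.99, 1.99 and 2.16 CPM with vehicle (log2 change 1.45, SE 0.22, adjusted p = 2.34e-06), while the amino acid carriers SLC1A5 (-0.61), SLC7A1 (-0.71) and SLC7A5 (-0.47) fell. Of 24 cholesterol synthesis and uptake genes, 2 rose, among them HMGCS1 (0.49), an early enzyme of the pathway, which is 8.33% of the list and below the 13.1% of all tested genes. In glycolysis and hypoxia response 6 fell and 2 rose among 25 (4 and 2 without vehicle replicate 1), led by hexokinase HK2 (-0.83), NDRG1 (-0.67) and ADM (-0.67). In the antioxidant list, TXNRD1 (-0.58), FTL (-0.55) and PRDX1 (-0.39) fell and AKR1B1 (0.30) rose, of 19 tested. The calls of SLC7A5, HMGCS1 and NDRG1 were lost against medium. Those of SLC7A5 and HMGCS1 were also lost without the libraries above 75% ribosomal counts, and that of SLC7A5 without hydrocortisone replicate 3. The AKR1B1 call was lost in 5 of 15 alternatives.

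Heat shock proteins had 3 falls and 2 rises among 15: the small heat shock protein CRYAB read 10.1, 14 and 10.4 CPM with hydrocortisone against 4.35, 3.15 and 3.78 CPM with vehicle (log2 change 1.62, SE 0.21, adjusted p = 1.44e-07), DNAJB4 rose by 0.98, and HSPD1 (-0.44), AHSA1 (-0.36) and HSPH1 (-0.44) fell. Of 21 unfolded protein and integrated stress response genes 4 fell, among them SHMT2 (-0.38) and TRIB3 (-0.72), and 1 rose. Without vehicle replicate 1, 4 of them fell and 0 rose. In the circadian clock, NR1D2 (-0.62), PER3 (-0.74), CSNK1E (-0.28) and CRY1 (-0.28) fell, NPAS2 and DBP rose at about 1 CPM, and 14 of 20 did not pass. The calls of NPAS2, DBP and CRY1 were lost without vehicle replicate 1 and that of CSNK1E without hydrocortisone replicate 3 or 4. Of 28 G protein and RGS genes 4 rose and 4 fell (3 and 5 without vehicle replicate 1). The prostaglandin E2 receptors PTGER2 (1.3) and PTGER4 (1.28) were among the rises, and the calcium-dependent phosphodiesterase PDE1C, which read 39.2, 37 and 40.6 CPM with hydrocortisone against 78.3, 78.4 and 79.2 CPM with vehicle (log2 change -1.01, SE 0.08, adjusted p = 4.69e-13), among the falls.

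All 10 pregnancy-specific glycoproteins, immunoglobulin-like proteins of the placenta that lie side by side on chromosome 19, fell (median -2.19, range -3.03 to -1.31), and all 10 without vehicle replicate 1. PSG1 (chr19:42866464-42879822, minus strand) read 4.58, 4.65 and 3.67 CPM with hydrocortisone against 29.6, 33.4 and 42.1 CPM with vehicle (log2 change -3.03, SE 0.17, adjusted p = 8.21e-15). PSG4 (-1.46) and PSG5 (-1.31) were the others above 10 CPM with vehicle; since reads can be shared among these near-identical genes, they do not count as 10 independent observations. This list was chosen with the results known. The 13 mitochondrially encoded genes gave no call and a median of -0.91. MT-ND4 read 139.8, 70.1 and 81.4 CPM with hydrocortisone against 432, 139.7 and 236 CPM with vehicle. Mitochondrial protein-coding transcripts made up 0.339 to 0.408% of the non-ribosomal counts with hydrocortisone, 0.697% in vehicle replicate 1, and 0.439 and 0.469% in the other vehicle flasks; the part of vehicle replicate 1 in this median was not tested.

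**Figure D2:**
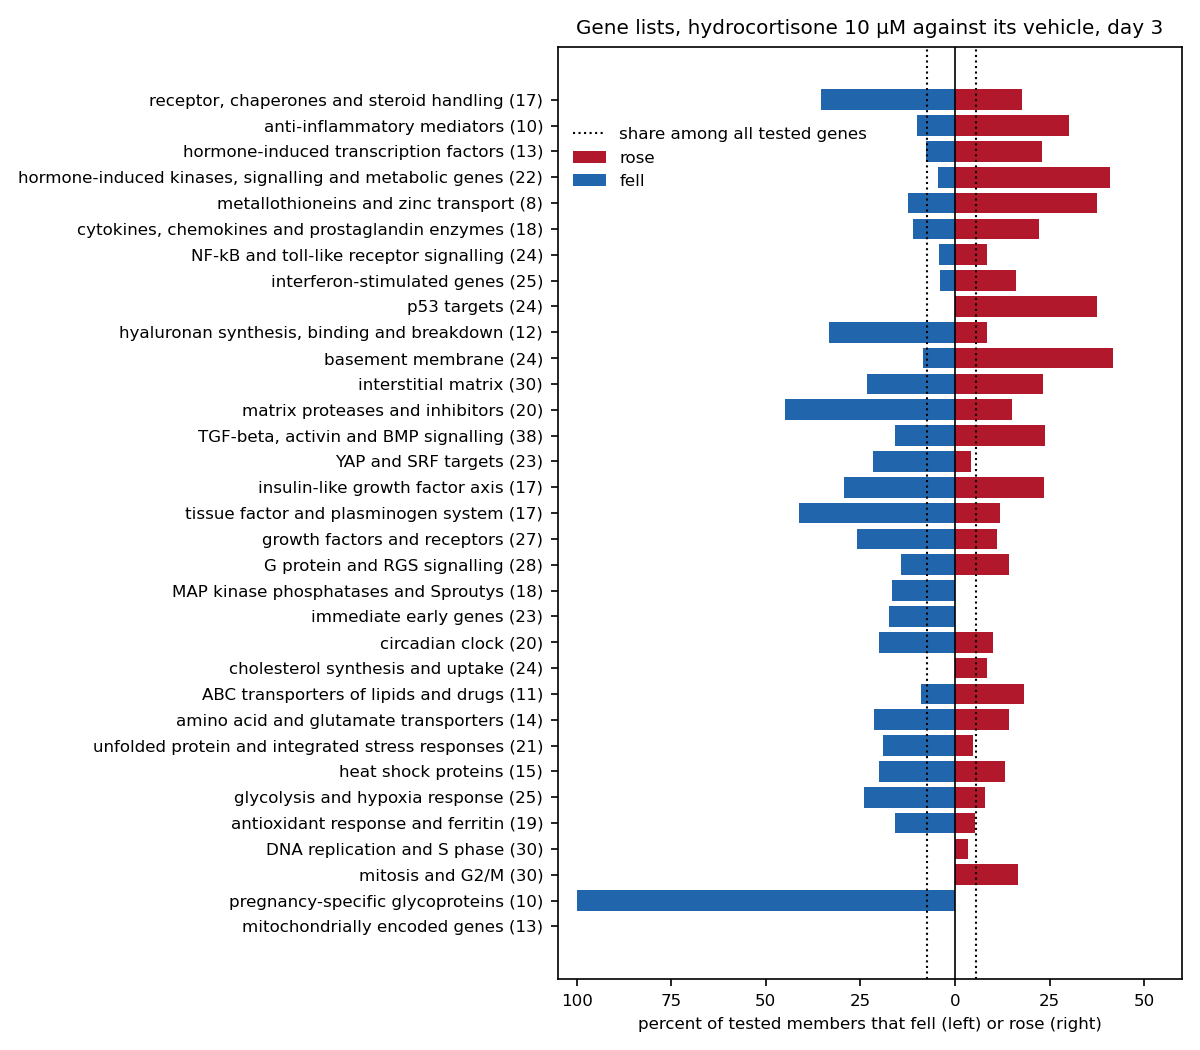
Percent of the tested members of each of the 33 pathway lists that fell (blue, left) or rose (red, right) with hydrocortisone 10 µM against its vehicle on day 3; the number tested is in parentheses. Dotted lines mark the shares among all tested genes, 7.5% lower and 5.58% higher; pregnancy-specific glycoproteins, matrix proteases and tissue factor genes reach furthest left, basement membrane genes and hormone-induced kinase, signalling and metabolic genes furthest right.

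The same hormone at 0.01 µM, against vehicle flasks of its own, changed 0 genes by edgeR's test (398 at an unadjusted p under 0.05, smallest adjusted p 0.192) and 0 by DESeq2. The test of the difference between the doses called 688 genes (4.09% of those tested), 291 with a higher (1.73%) and 397 with a lower effect at 10 µM (2.36%). For TSC22D3 the change was 3.26 at 10 µM and 0.11 at 0.01 µM, a difference of 3.15 (SE 0.35, adjusted p = 3.45e-07). NID2 changed by 3.14 and -0.06 (difference 3.2, adjusted p = 1.96e-15), and HAS2 by -2.38 and -0.11 (difference -2.27, adjusted p = 7.94e-12). Of the 24 genes with the largest rises and falls, ADPRHL1 (3.47) and MPP4 (-3.5) differed most between the doses. Among the 12 largest rises the low dose ranged from -0.34 to 0.46 and among the 12 largest falls from -0.44 to 0.00, and the doses differed by the test in 12 and 11 of them, the 10 µM values entering both comparisons. Over the 938 raised genes the median change at 0.01 µM was 0.02, and over the 1261 lowered genes it was -0.04. ABCA8 was the one of these 24 genes with a 95% interval above 0 at the low dose (0.32, 0.09 to 0.55), and IGFBP5 the one with an interval below 0 (-0.41, -0.78 to -0.03); neither passed the test.

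**Figure D3:**
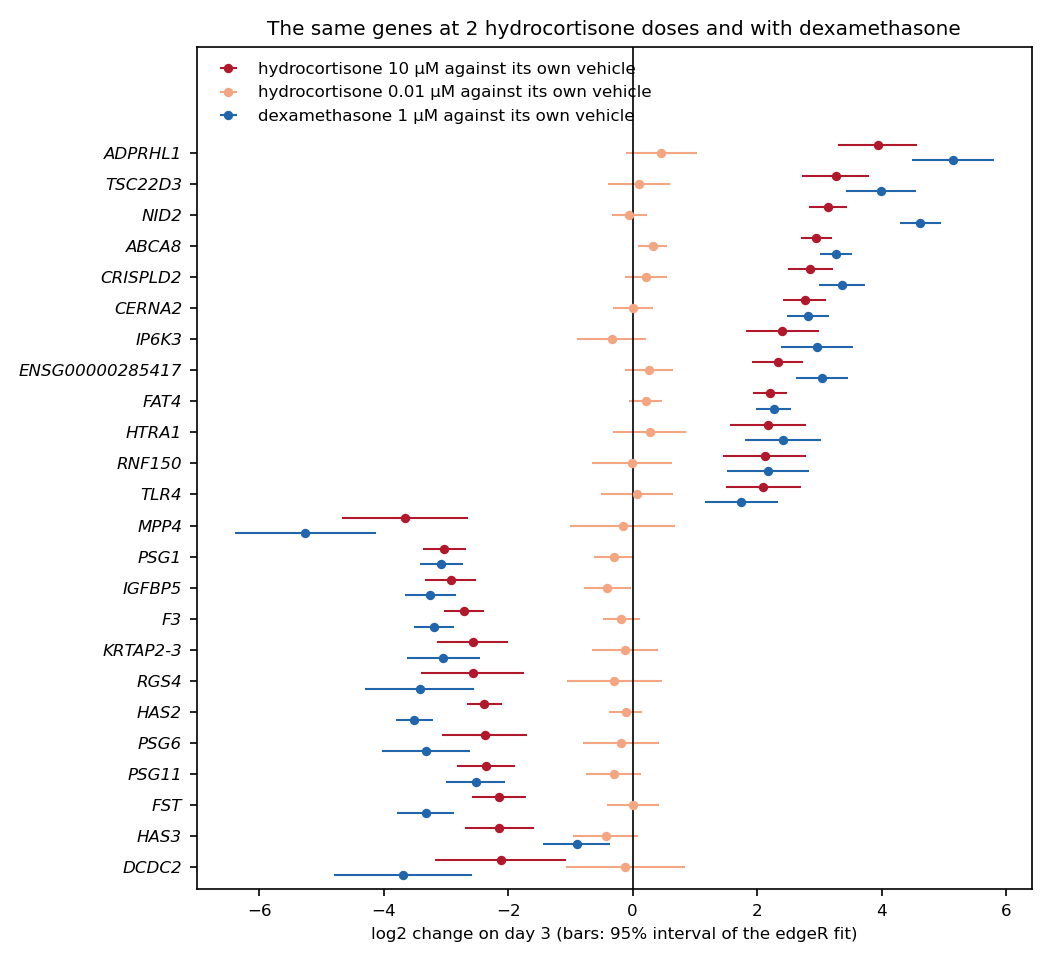
Log2 change on day 3 of the 12 genes with the largest rises and the 12 with the largest falls, with hydrocortisone 10 µM (red), hydrocortisone 0.01 µM (light) and dexamethasone 1 µM (blue), each against its own vehicle; points are estimates of the edgeR fit and bars its 95% intervals. The low dose lies between -0.44 and 0.46 for all 24 genes, and dexamethasone lies on the same side as hydrocortisone 10 µM for all 24.

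Dexamethasone is a synthetic relative of hydrocortisone with an added fluorine, an added methyl group and a further double bond in ring A. It was given at 1 µM, a dose not matched to hydrocortisone at 10 µM, so differences are between these treatments and not between compounds at 1 dose. Dexamethasone at 1 µM called 3804 genes (22.6%). No library is shared between these comparisons: 1583 genes passed in both, in the same direction, which is 72.0% of the hydrocortisone calls and 41.6% of the dexamethasone calls. The 938 genes raised by hydrocortisone had a median change of 0.54 with it and 0.52 with dexamethasone, and the 1261 lowered genes -0.48 and -0.47. TSC22D3 changed by 3.26 and 3.99, a difference of -0.73 (95% interval -1.44 to -0.03) that did not pass (adjusted p = 0.487). FKBP5 changed by 1.22 and 1.44, with a 95% interval of the difference of -0.59 to 0.15.

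The treatments differed by the test in 5 genes (0.0297%), 2 with a higher (0.0119%) and 3 with a lower value for hydrocortisone (0.0178%). NID2 rose by 3.14 with hydrocortisone and by 4.62 with dexamethasone (difference -1.48, SE 0.20, adjusted p = 3.92e-05). HAS2 changed by -2.38 and -3.51 (difference 1.12, SE 0.19, adjusted p = 0.00285). COL5A1 changed by 0.86 and 1.51 (difference -0.65, adjusted p = 0.00357), and CTSC, the lysosomal protease cathepsin C, by -1.21 and -1.8 (difference 0.59, adjusted p = 0.0174). In these 4 the change was the larger one with dexamethasone. DMPK, the kinase gene of myotonic dystrophy, did not pass with hydrocortisone (0.05) and rose by 1.27 with dexamethasone (difference -1.22, adjusted p = 0.00683); it overlaps DM1-AS on the other strand. HAS3, with -2.14 and -0.90, was the one of the 12 largest falls whose value was nearer 0 with dexamethasone, and its difference of -1.24 did not pass (adjusted p = 0.281). Without the libraries above 75% ribosomal counts 1 gene passed, without dexamethasone replicate 4 there were 2, without replicate 2 of the dexamethasone vehicle 3, and without replicate 3 of the hydrocortisone vehicle 8.

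On day 6, after 3 days in hormone-free medium, 3 libraries of cells once given 10 µM were compared with the 4 vehicle libraries of that day, 1 of each vehicle group. There 150 genes passed (0.892%), 71 higher (0.422%) and 79 lower (0.47%). Day 6 flasks were seeded from day 3 cells, but no library is shared with the day 3 comparison; 108 genes passed on both days in the same direction, 4.91% of the day 3 calls and 72.0% of the day 6 calls. The median change of the 938 raised genes was 0.09 on day 6, against 0.54 on day 3, and of the 1261 lowered genes -0.09, against -0.48. The test of the change in effect between the days, each against all vehicles of its day, called 1172 genes (6.97%), 725 with a higher (4.31%) and 447 with a lower effect on day 6 (2.66%), and 709 without hydrocortisone replicate 4 of day 3.

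ADPRHL1 kept a change of 2.15 on day 6 (SE 0.27, adjusted p = 1.22e-05), CRISPLD2 of 1.41 (adjusted p = 1.94e-06) and NID2 of 0.92 (adjusted p = 1.72e-05), and in all 3 the effect was smaller than on day 3 by the test of the difference. TSC22D3 was at 0.62 and FKBP5 at 0.45, neither passing (adjusted p = 0.243 and 0.0597). TXNIP stood at 1.49 on day 6 (adjusted p = 0.00575) and 1.44 on day 3, and the days did not differ by the test (difference 0.26, 95% interval -0.51 to 1.02). In this paragraph day 3 values are against the vehicle of the same dose. The tested differences use all vehicles of each day, so they are not the plain difference of the 2 values. ABCG2, a drug efflux pump, was at -0.02 on day 3 and at 2.13 on day 6 (adjusted p = 0.00868; difference 1.9, adjusted p = 0.0247). Among the falls, IGFBP5 was still lower by 1.26 (adjusted p = 6.36e-05), FST by 1.18, PSG1 by 1.11, INHBA by 0.79 and F3 by 0.76, whereas HAS2 (-0.35, adjusted p = 0.205) did not pass. SCN9A, a sodium channel of pain-sensing neurons, changed by -1.92 on day 3 and -1.11 on day 6 (adjusted p = 4.59e-05). Of the 12 largest rises 7 passed on day 6 and of the 12 largest falls 4. Without the day 6 hydrocortisone library replicate 3 the count of 150 was 34, without its replicate 4 it was 67, and without the day 6 vehicle library of the high dexamethasone dose it was 77.

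**Figure D4:**
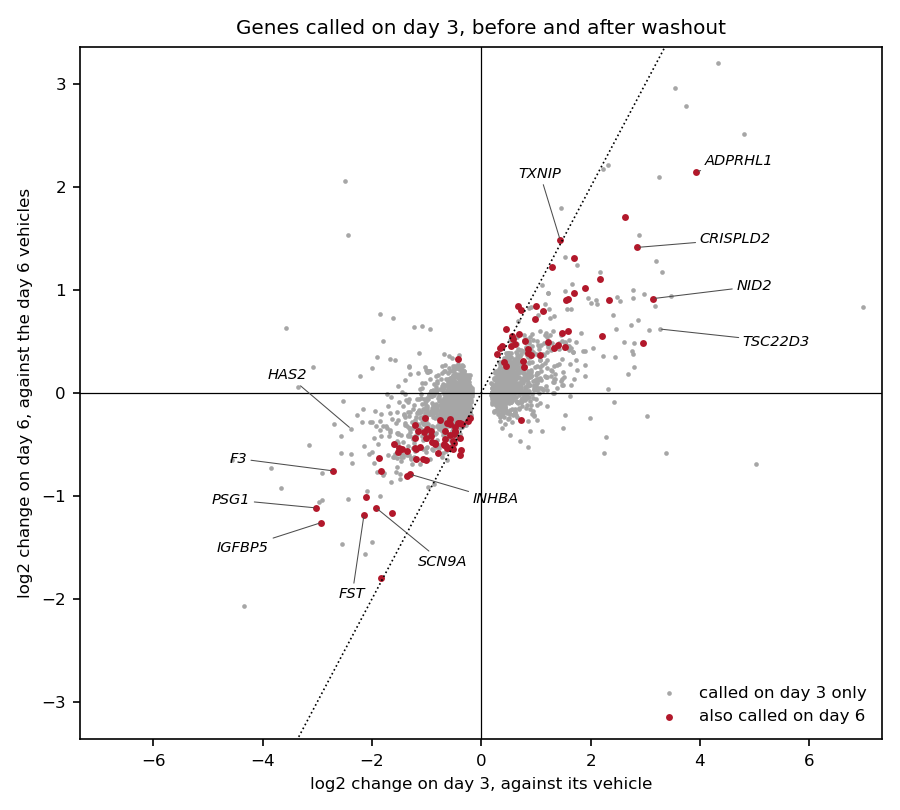
Log2 change on day 6, after washout, against log2 change on day 3 for the 2199 genes called on day 3; red points also passed on day 6, and the dotted line marks equal change. Most points lie near 0 on the day 6 axis; ADPRHL1 and CRISPLD2 stay high on both axes, TXNIP lies close to the dotted line, and HAS2 and TSC22D3, in grey, did not pass on day 6.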

How the data were processed

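RNA of HMC3 flasks was sequenced as stranded total RNA. The authors deposited 1 table of raw counts per gene for 43 libraries in 17 groups; per the submitters' processing notes FastQC, STAR, Subread with featureCounts and GRCh38 were used, and no version or strand setting is stated in the sources used here. The table holds 20052 genes; 19848 got positions from GENCODE release 29. Genes were tested with edgeR 4.0.16 in R 4.3.3 (TMM, filterByExpr with a minimum count of 10 and total of 15, robust quasi-likelihood fit of all 43 libraries with 1 coefficient per group and 26 residual degrees of freedom, Benjamini-Hochberg adjustment over 16816 genes, threshold 0.05), after checking the code on simulated data. The day 6 vehicles are 1 library per group and were averaged. Named genes were the 12 largest rises and falls (called, log2 CPM over all 43 libraries averaging 1 or more, no overlap), up to 4 called members per list, by smallest p, the 2 members of each list with the highest mean level, and NR3C1, FKBP5, TSC22D3, PER1, KLF9, DUSP1, SGK1, NFKBIA and HAS2; the other comparisons add their 4 largest differences each way. Some genes that this rule takes are not reported here. Further list members and genes of low counts are named as examples chosen after their values were seen. The members and lists were chosen with earlier results of these data known. Alternatives were DESeq2 1.42.0, other scaling, filters, controls and sets of libraries, and each library left out.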

Additional observations from a re-analysis of the deposited data

Results flagged for a closer look

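A test of the difference between effects called 688 genes between hydrocortisone 10 µM and 0.01 µM on day 3, and 1172 genes between day 3 and day 6 after washout.

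Between hydrocortisone 10 µM and dexamethasone 1 µM, which are not matched doses, the same kind of test called 5 genes. The difference, hydrocortisone minus dexamethasone on the log2 scale, was -1.48 for NID2, 1.12 for HAS2, -0.65 for COL5A1, 0.59 for CTSC and -1.22 for DMPK. Groups of 3 libraries are too small for a test of single outlying libraries, and none was made.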

How the results depend on the processing

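Against all 12 vehicle libraries of day 3 in place of the 3 of its own dose, hydrocortisone 10 µM called 4066 genes, 1974 higher and 2092 lower. Under DESeq2, RLE scaling, no low-count filter, removal of ribosomal RNA genes, the 6 libraries alone, the replicate block, medium as control and removal of libraries above 75% ribosomal counts, the count of 2199 stayed within 1.5 times, from 1637 (6 libraries alone) to 2911 (medium). Leaving out each library in turn gave 1396 (without hydrocortisone replicate 4) to 2310 genes, 586 (without vehicle replicate 1) to 1115 higher and 785 to 1195 lower. The dose difference ranged from 485 to 816 genes, the difference from dexamethasone from 2 to 8, the change between days from 709 to 1277, and the day 6 count from 34 to 174. The difference from dexamethasone called 1 gene without libraries above 75% ribosomal counts. On day 6 the count of 150 was 251 without ribosomal RNA genes, 306 with the libraries of the comparison alone and 237 by DESeq2; the cause was not tested.

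The hydrocortisone and vehicle groups share the numbers 2 and 3 only, and deviations of same-numbered libraries correlated at -0.0451 and -0.082, so the numbers were not taken to pair the flasks. With the replicate block 2007 genes passed, 851 higher and 1156 lower. SGK1, not called, had a log2 change of -0.04255 in that replicate block fit and of -0.09252 against medium, opposite to the 0.13 of the comparison with vehicle. Where leaving out a library left 1 group with 2, the spread was shared across all groups. Calls on KDR and IL1B rest on few reads and are limited by depth.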
